A study of Mus musculus with 4 samples.

Results

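The cyclin-dependent kinase (CDK) inhibitors of the CIP/KIP and INK4 families were followed across 4 radiation doses in long-term haematopoietic stem cells (HSCs) of the mouse. The 7 genes, Cdkn1a, Cdkn1b, Cdkn1c, Cdkn2a, Cdkn2b, Cdkn2c and Cdkn2d, were taken by symbol from 23185 named genes on the array. Each had 1 probe set, defined by its Entrez gene, and all 7 were found. Bone marrow cells that were lineage-negative, c-Kit-positive and Sca-positive, a population of stem cells and early progenitors, received γ-irradiation at 0, 0.02, 0.1 or 0.5 Gy before transplantation. The 0 Gy cells were transplanted too, and recipients of every dose had been lethally irradiated, so the control stem cells also came from an irradiated host. At 6 months long-term HSCs were sorted as cells of that phenotype without Flk2 and CD48 and with CD150. The labels give no strain, age, donor marker in the gate or pooling of mice. Each dose is 1 array, so there is no spread within a dose, and the number of arrays limits the precision of every value.

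CDK inhibitors hold back the kinases that drive a cell from G1 into S phase. The CIP/KIP proteins p21 (Cdkn1a), p27 (Cdkn1b) and p57 (Cdkn1c) bind complexes of cyclins with CDK2, CDK4 or CDK6, whereas the INK4 proteins p16 (Cdkn2a), p15 (Cdkn2b), p18 (Cdkn2c) and p19 (Cdkn2d) bind CDK4 and CDK6 alone. Long-term HSCs divide rarely, and several of these inhibitors are known to restrain their division. Cdkn1a is a classical target of p53, the transcription factor that responds to DNA damage, and Cdkn2a is known for its activation in senescent cells.

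The promoters show how differently the family members are built, and those of Cdkn1a and Cdkn2d are given because these genes had the widest differences from 0 Gy within their families. RefSeq windows of 300 bases, from 250 before to 50 after a transcription start in build GRCm38.p6, were held for 6 of the 7 genes, 9 windows in all. Cdkn1a has 2 windows on the plus strand, an upstream one at chr17:29090729-29091028 and a downstream one at chr17:29093519-29093818, and the window of Cdkn2d lies on the minus strand at chr9:21291160-21291459. All are printed 5′ to 3′. Capitals mark the p53 element in the upstream window of Cdkn1a, GC boxes (GGGCGG on either strand) and a TATA box (TATAA) in the downstream one, and GC boxes in the window of Cdkn2d.
Cdkn1a upstream start: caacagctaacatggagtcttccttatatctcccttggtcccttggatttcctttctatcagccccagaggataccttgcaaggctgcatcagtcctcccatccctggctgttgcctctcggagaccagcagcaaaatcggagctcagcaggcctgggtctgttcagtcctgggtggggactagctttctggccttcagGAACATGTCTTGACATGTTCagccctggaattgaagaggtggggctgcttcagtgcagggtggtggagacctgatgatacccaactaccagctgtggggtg
Cdkn1a downstream start: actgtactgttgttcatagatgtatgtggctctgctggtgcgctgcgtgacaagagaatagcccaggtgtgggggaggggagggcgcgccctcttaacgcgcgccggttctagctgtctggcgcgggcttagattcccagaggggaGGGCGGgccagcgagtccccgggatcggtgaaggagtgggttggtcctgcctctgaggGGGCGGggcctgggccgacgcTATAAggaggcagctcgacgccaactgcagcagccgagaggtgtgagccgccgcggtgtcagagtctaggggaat
Cdkn2d start: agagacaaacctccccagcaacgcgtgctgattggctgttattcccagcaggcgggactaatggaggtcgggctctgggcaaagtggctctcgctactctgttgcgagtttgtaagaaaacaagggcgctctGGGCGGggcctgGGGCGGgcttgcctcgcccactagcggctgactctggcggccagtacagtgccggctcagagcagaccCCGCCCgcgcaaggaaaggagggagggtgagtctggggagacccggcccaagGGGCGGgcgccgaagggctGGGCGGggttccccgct

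The p53 response element, a palindromic motif of 20 bases searched by its consensus, matched the upstream window of Cdkn1a with 1 mismatch, at position 11 of the element, counted from its 5′ end. The match spans positions -51 to -32 relative to the start, at chr17:29090928-29090947. Of all 32851 windows, 29 (0.0883%) held a match with at most 1 mismatch. The best match in the downstream window of Cdkn1a had 5 mismatches, and those in the windows of Cdkn1b, Cdkn2a, Cdkn2b, Cdkn2c and Cdkn2d had between 3 and 6. The upstream window of Cdkn1a contained 2 CpG dinucleotides, against 23 in the downstream window and 8 to 45 in those of the other members, and the median over all windows was 7. GC boxes numbered 5 in the window of Cdkn2d and 0 in the upstream window of Cdkn1a, and 35.7% of all windows held at least 1. The TATA box of the downstream Cdkn1a window lies at -25 to -21, the upstream window held these letters on the opposite strand at -227 to -223, and 24.9% of all windows held that motif on either strand. Cdkn2b carried the cAMP response element TGACGTCA at -46 to -39, which 1.79% of windows held, and Cdkn1b carried 3 CCAAT boxes (CCAAT on either strand, found in 37.4% of windows). These matches are letters in a window. Which start the probes of a gene read from is not given in the sources used here.

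Across the family, Cdkn1a was the gene with the widest differences between arrays. At 2-fold or more against 0 Gy, Cdkn1a was the 1 of 7 genes higher at 0.02 Gy and again the 1 of 7 at 0.5 Gy, and at 0.1 Gy the count was 0. None of the 7 was 2-fold lower at any dose. Among the 11593 genes kept by a filter on low values (a mean log2 intensity of 4.06 or more, set at the midpoint of the gene means), 2.48% were 2-fold higher at 0.02 Gy, 1.59% at 0.1 Gy and 1.63% at 0.5 Gy, and 1.55%, 2.68% and 3.01% were 2-fold lower. The filter kept 6 of the 7 members, Cdkn2a being below it. At 1.5-fold, Cdkn1a was higher at each dose and Cdkn2d joined it at 0.5 Gy, beside 6.44%, 5.50% and 5.92% of kept genes at 0.02, 0.1 and 0.5 Gy. Over the 7 members the median log2 difference was 0.00 at 0.02 Gy, -0.09 at 0.1 Gy and 0.10 at 0.5 Gy, where the median of all kept genes was 0.00 each time. These comparisons share the 0 Gy array, so a value that is off on that array enters all of them.

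**Figure D1:**
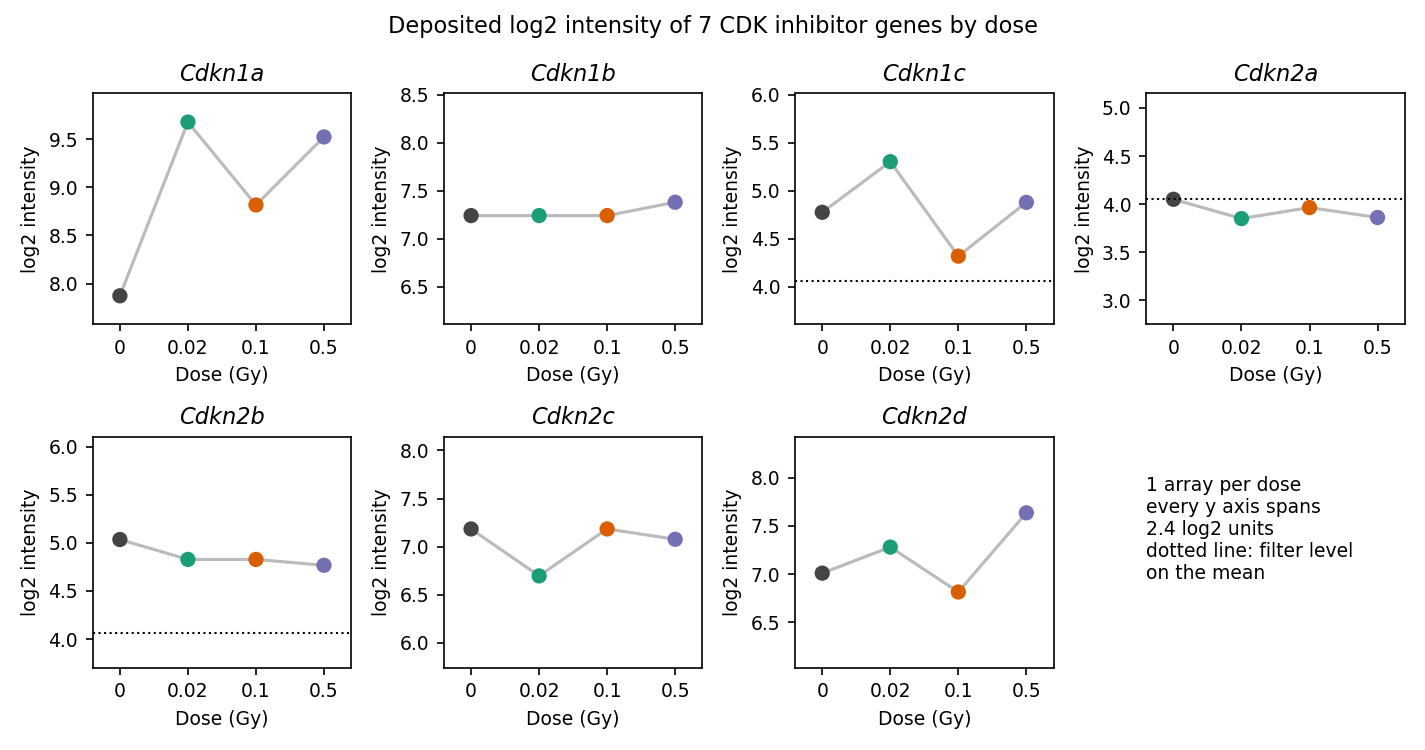
Deposited log2 intensity of each gene (y axis, the same span in every panel) by dose in Gy (x axis), 1 point per array, with the filter level of 4.06 as a dotted line where it falls in the panel. Cdkn1a is lowest at 0 Gy, at 7.87, and highest at 0.02 Gy, at 9.68, while Cdkn1b has the same value on 3 arrays.

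Cdkn1a (Entrez gene 12575, chromosome 17 from 29090979 to 29100722) encodes p21, which blocks CDK2 complexes and also binds the replication clamp PCNA. Its log2 intensity of 7.87 on the 0 Gy array compared with 9.68 after 0.02 Gy, 8.82 after 0.1 Gy and 9.52 after 0.5 Gy. All irradiated arrays lay above the 0 Gy array, and the order of the levels did not follow the dose. The log2 differences from 0 Gy were 1.81, 0.94 and 1.65 at 0.02, 0.1 and 0.5 Gy, or 3.50-fold, 1.92-fold and 3.14-fold. Of the 11593 kept genes, 0.819%, 1.92% and 0.431% had differences as high or higher at 0.02, 0.1 and 0.5 Gy. Comparisons among irradiated arrays do not use the 0 Gy array. There the gene was 1.82-fold lower at 0.1 than at 0.02 Gy, 1.63-fold higher at 0.5 than at 0.1 Gy, and 1.11-fold lower at 0.5 than at 0.02 Gy. The first of these differences was -0.86 and 4.28% of kept genes were as low or lower.

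With single arrays per dose, 2 fits could be tested. The first set the 3 irradiated arrays together against the 0 Gy array, with differences between doses counted as error, and the second fitted a straight line in dose. In limma, fitted over all kept genes, the mean difference of Cdkn1a was 1.47 with a standard error of 0.46, and the 95% interval ran from -0.12 to 3.06. Its Benjamini-Hochberg adjusted p in limma was 0.49, with an unadjusted p of 0.060, although all 3 arrays were higher. For a straight line in dose the limma slope was 1.67 ± 1.86 (SE) log2 units per Gy with an adjusted p of 0.99. That slope was 0.35 without the 0 Gy array, 2.87 without the 0.02 Gy array and 3.67 without the 0.5 Gy array, so its size rested on single arrays. Neither limma fit called any of the 11593 genes at an adjusted p of 0.05 (0.0% called), while 10.9% and 12.3% of genes had an unadjusted p under 0.05. An exact permutation test of 1 array against 3 cannot give a two-sided p below 0.25. For the 4 arrays against dose there are 24 orders, and doubling the smallest one-sided p of such a permutation test gives 0.083.

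**Figure D2:**
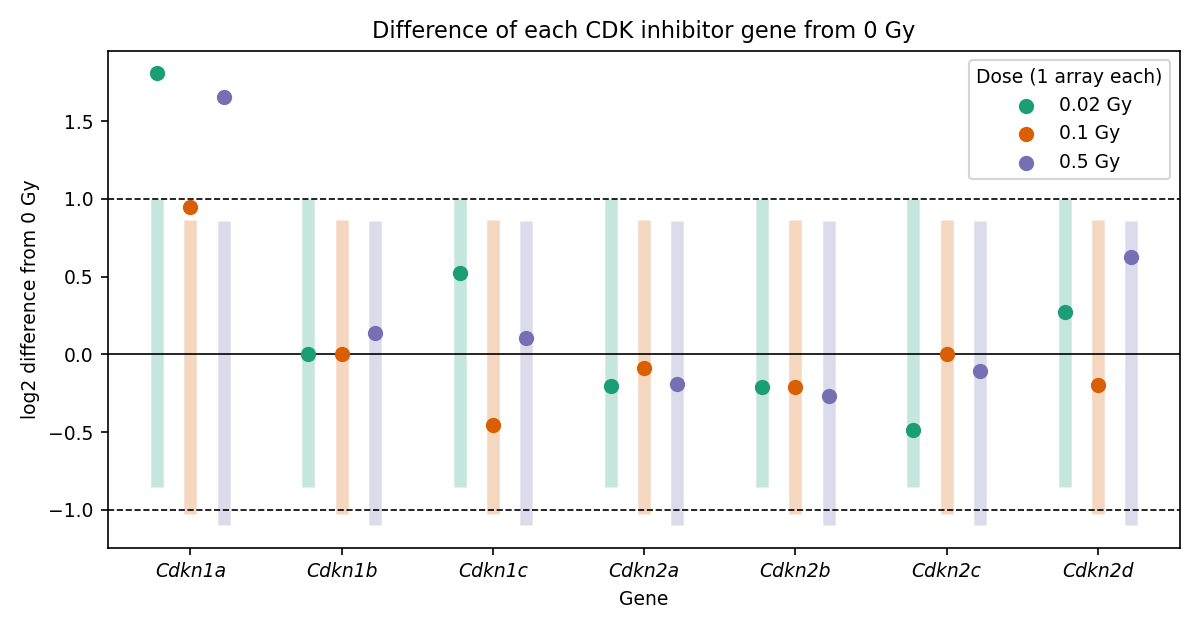
Log2 difference of each gene from the 0 Gy array (y axis) at 0.02, 0.1 and 0.5 Gy, 1 array per dose, with dashed lines at 2-fold and pale bars for the central 95% of the 11593 kept genes at that dose. Cdkn1a lies above the bar at each dose, at 1.81, 0.94 and 1.65, and the other 6 genes lie within the bars.

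The other CIP/KIP genes differed less from 0 Gy. Cdkn1b (12576, chromosome 6 from 134920401 to 134925525) encodes p27, an inhibitor that accumulates in resting cells. It had the identical log2 value of 7.24 at 0, 0.02 and 0.1 Gy and 7.38 at 0.5 Gy, a range of 0.14 that 83.6% of kept genes equalled or exceeded. In limma the mean difference of the irradiated arrays was 0.05 ± 0.09 (SE), with a 95% interval from -0.25 to 0.34 and an adjusted p of 1. Of the kept genes, 17.1% had exactly the same value on at least 3 arrays, so such ties were common in these files.

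Cdkn1c (12577, chromosome 7 from 143458339 to 143461059) encodes p57, an imprinted inhibitor known to keep HSCs quiescent. Its log2 intensity was 4.78, 5.30, 4.32 and 4.88 at 0, 0.02, 0.1 and 0.5 Gy. Thus 0.02 Gy was the highest and 0.1 Gy the lowest array, with 0 and 0.5 Gy between them. The differences from 0 Gy were 0.53, -0.46 and 0.10. Its widest gap was between irradiated arrays, where 0.1 Gy was 1.98-fold lower than 0.02 Gy, and 3.36% of kept genes were as low or lower. Across the irradiated arrays Cdkn1a and Cdkn1c thus had their highest value at 0.02 Gy and their lowest at 0.1 Gy, and both were at least 1.5-fold lower at 0.1 than at 0.02 Gy, as were 8.15% of kept genes. The limma mean difference of Cdkn1c from 0 Gy was 0.06 ± 0.50 (SE) with an adjusted p of 1 and a 95% interval from -1.65 to 1.76.

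The INK4 genes showed no 2-fold difference at any dose. Cdkn2a (12578, chromosome 4 from 89274473 to 89294619) encodes p16 and, from another start and reading frame, the p53 activator ARF, and its single probe set does not separate them. Its log2 intensity was 4.05, 3.85, 3.96 and 3.86 at 0, 0.02, 0.1 and 0.5 Gy. Every array lay below the filter level of 4.06, so its differences of -0.20, -0.09 and -0.19 have an uncertain size. The irradiated arrays were all lower than the 0 Gy array, by at most 1.15-fold.

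Cdkn2b (12579, chromosome 4 from 89306289 to 89311032), which encodes p15 and lies beside Cdkn2a, had 5.03 at 0 Gy, 4.83 at both 0.02 and 0.1 Gy, where the value was identical, and 4.77 at 0.5 Gy. The 0 Gy array was the highest, and the irradiated arrays lay close together. The differences were -0.21, -0.21 and -0.27. Of the 6 members tested it had the lowest unadjusted p in limma, 0.021, for a mean difference of -0.23 ± 0.05 (SE), with a 95% interval from -0.38 to -0.07. The adjusted p over all genes in limma was 0.315, so the difference did not pass the threshold. The gene was lower in 3 of 3 irradiated arrays. Under quantile normalization the 95% interval of its mean difference ran from -0.55 to 0.14. It ran from -0.56 to 0.08 under median centring and from -0.45 to 0.01 under cyclic loess, so each of these intervals included 0.

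Cdkn2c (12580, chromosome 4 from 109660876 to 109666756) encodes p18, whose loss is known to expand the HSC pool in mice. It had the identical 7.18 at 0 and 0.1 Gy, 6.70 at 0.02 Gy and 7.08 at 0.5 Gy. The 0.02 Gy array stood apart below the others, 1.40-fold lower than 0 Gy, and 8.90% of kept genes were as low or lower there. Cdkn1a and Cdkn2c were therefore at opposite ends on this array, Cdkn1a at its highest and Cdkn2c at its lowest value. The limma mean difference from 0 Gy was -0.20 ± 0.26 (SE) with an adjusted p of 1 and a 95% interval from -1.09 to 0.69.

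Cdkn2d (12581, chromosome 9 from 21288459 to 21291421) encodes the INK4 protein p19, which is distinct from the ARF product of Cdkn2a. Its log2 intensity was 7.01, 7.28, 6.81 and 7.64 at 0, 0.02, 0.1 and 0.5 Gy. The 0.5 Gy array was the highest and the 0.1 Gy array the lowest. Its differences from 0 Gy were 0.27, -0.20 and 0.63, and at 0.5 Gy, where it was 1.54-fold higher, 5.13% of kept genes were as high or higher. Between 0.5 and 0.1 Gy the gene was 1.77-fold higher, a gap equalled or exceeded upward by 2.84% of kept genes. Cdkn1a was also at least 1.5-fold higher in that comparison, as were 5.91% of kept genes. In limma the mean difference of Cdkn2d from 0 Gy was 0.23 ± 0.42 (SE), with a 95% interval from -1.19 to 1.66 and an adjusted p of 1. It was 0.04 without the 0.5 Gy array and 0.45 without the 0.1 Gy array.

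Among p53 targets other than Cdkn1a, few genes differed from 0 Gy by as much. The list held 23 genes, of which 21 were measured and 15 were kept by the filter. At 0.02 Gy 2 of the 15 reached 1.5-fold upward and 0 downward, and at both 0.1 and 0.5 Gy 2 did so in either direction. Their median log2 differences were 0.04, 0.00 and 0.00, and over all 21 measured genes 0.01, 0.00 and 0.00. Background shares at the same doses were 6.44%, 5.50% and 5.92% for 1.5-fold higher genes and 6.20%, 7.48% and 8.25% for 1.5-fold lower genes. Plk3, a stress-responsive kinase, read 4.34, 5.78, 5.01 and 5.17 in log2 intensity at 0, 0.02, 0.1 and 0.5 Gy and was, like Cdkn1a, lowest at 0 Gy and highest at 0.02 Gy. Btg2, an antiproliferative gene, had 7.96, 9.72, 8.03 and 8.61, with the same order of arrays as Cdkn1a. Trp53inp1, which encodes a p53-induced nuclear protein, had 6.37, 6.78, 5.24 and 5.56, so that 0.1 and 0.5 Gy lay below 0 Gy. Tnfrsf10b, a death receptor gene, had 5.50, 5.43, 5.43 and 4.55 and was lowest at 0.5 Gy.

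Of the p53 targets, 15 had a promoter window, and 1 of these, the cyclin gene Ccng1, held a p53 element with at most 1 mismatch. It lies on the minus strand at chr11:40755462-40755481, at positions -195 to -176, and is set beside that of Cdkn1a, with capitals over the whole element.
Cdkn1a element: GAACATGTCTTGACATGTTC
Ccng1 element: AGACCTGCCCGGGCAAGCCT
Ccng1 had log2 differences of 0.36, -0.08 and 0.28 at 0.02, 0.1 and 0.5 Gy, against 1.81, 0.94 and 1.65 for Cdkn1a. For both genes the lowest of the irradiated arrays was 0.1 Gy, but Ccng1 lay below 0 Gy there. Mdm2, the ubiquitin ligase that is both target and inhibitor of p53, had differences of -0.13, 0.05 and 0.00 at 0.02, 0.1 and 0.5 Gy.

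**Figure D3:**
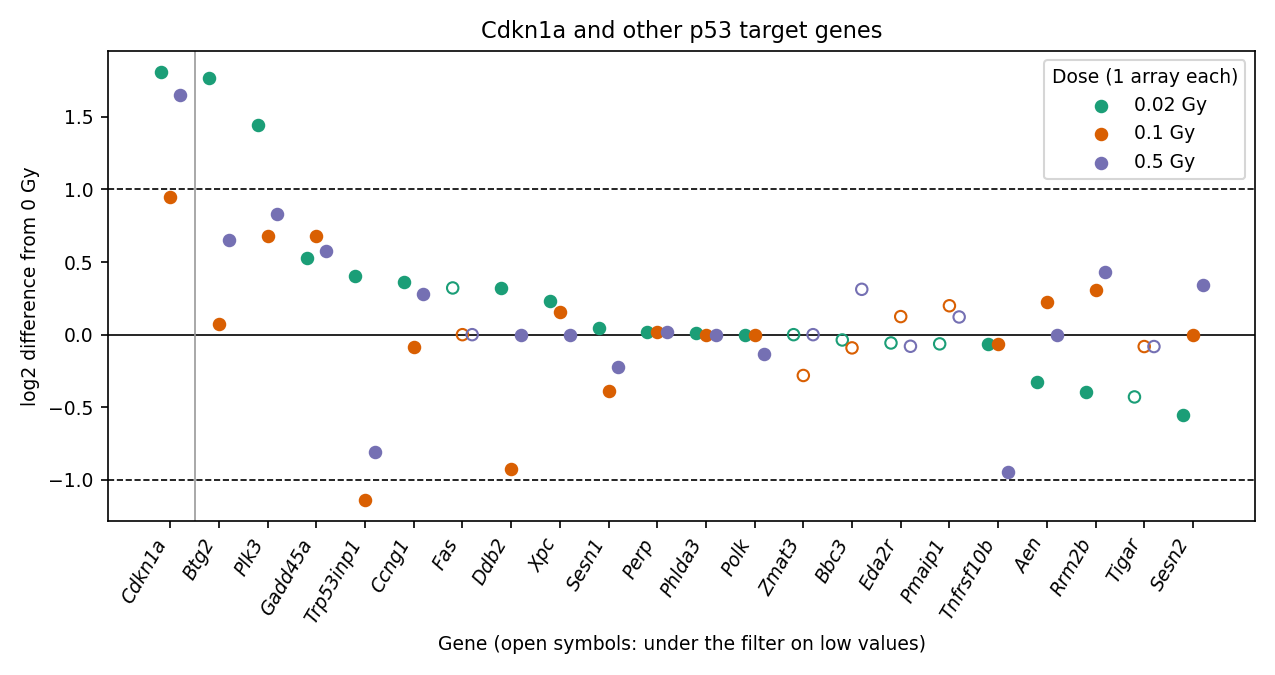
Log2 difference from 0 Gy (y axis) of Cdkn1a, left of the grey line, and of 21 other p53 target genes ordered by their difference at 0.02 Gy (x axis), 1 array per dose, with open symbols for genes under the filter and dashed lines at 2-fold. Btg2 and Plk3 lie above 2-fold at 0.02 Gy beside Cdkn1a, and most other genes lie near 0.

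In the list of p53 and its upstream regulators 11 of 12 genes were measured and 9 were kept, with medians of 0.00, 0.05 and 0.00. Chek1, the checkpoint kinase of S phase, had 6.84, 5.82, 7.34 and 7.06 at 0, 0.02, 0.1 and 0.5 Gy, and it was the only 1 of the 9 at least 1.5-fold from 0 Gy at any dose. Trp53 itself was not among the genes measured, so it has no value here. Other transcriptional regulators of Cdkn1a included 19 kept genes. Of these 2, 3 and 4 were 1.5-fold higher or more at 0.02, 0.1 and 0.5 Gy, and 1, 0 and 1 lower. Among all kept genes 6.44%, 5.50% and 5.92% were that much higher and 6.20%, 7.48% and 8.25% lower. Klf4, a Krüppel-like activator of Cdkn1a, had 6.28, 7.29, 6.36 and 7.15 at 0, 0.02, 0.1 and 0.5 Gy, with the same order of arrays as Cdkn1a. Klf6, another Krüppel-like factor, had 8.39, 8.88, 9.27 and 9.36. Bcl6, a repressor, had 3.85 at 0 Gy, below the filter level, 6.41 at 0.02 Gy and 4.69 at both other doses. Hdac1, a histone deacetylase, was 1.67-fold lower than 0 Gy at 0.02 Gy, with differences of -0.05 and -0.13 at 0.1 and 0.5 Gy.

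Of the kinases and cyclins that the inhibitors bind, 11 genes were kept, and few lay far from 0 Gy. Of these 0, 1 and 0 were 1.5-fold higher or more at 0.02, 0.1 and 0.5 Gy, and 2, 1 and 0 were lower, beside 6.44%, 5.50% and 5.92% of all kept genes higher and 6.20%, 7.48% and 8.25% lower. The medians were -0.28, 0.06 and 0.06. Cdk1, the mitotic kinase, had 8.90, 8.18, 9.31 and 9.09 at 0, 0.02, 0.1 and 0.5 Gy and was lowest on the array where Cdkn1a was highest. Ccnd1, cyclin D1, had 8.45, 7.76, 7.16 and 8.14, all irradiated arrays being below 0 Gy. Cdk6, a target of both families, had 8.92, 9.32, 9.85 and 9.40, all above it. Cdk2, the main kinase bound by p21 and p27, had 6.96 at 0 Gy and 7.02 at each other dose.

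RB family and E2F genes, which act below these kinases, had medians of -0.05, 0.02 and 0.00 over 16 kept genes. At 1.5-fold, 0 genes were past the level at 0.02 Gy. At 0.1 Gy 1 was lower (Lin52, a subunit of the DREAM complex, at -0.67), beside 7.48% of all kept genes. At 0.5 Gy 1 was higher (E2f6, a repressive E2F factor, at 0.59), beside 5.92%. The 15 kept E2F targets of S phase were all below 0 Gy at 0.02 Gy, where Cdkn1a was highest, with a median of -0.27. On that array 54.5% of all kept genes were at or above 0 Gy. At least 1.5-fold lower were 3 of the 15 targets, against 6.20% of kept genes. These were Tyms at -0.63, Tk1 at -0.60 and Cdc45 at -0.59, which act in nucleotide supply and replication. At 0.1 and 0.5 Gy, where Cdkn1a was also above 0 Gy, their medians were 0.01 and 0.00.

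Of 15 kept proliferation markers, 7, 0 and 1 were at least 1.5-fold lower at 0.02, 0.1 and 0.5 Gy, beside 6.20%, 7.48% and 8.25% of all kept genes. None was that much higher at any dose, and the medians were -0.56, 0.04 and -0.12. Mki67, the classical marker of cycling cells, had 9.47, 9.22, 9.51 and 9.34 at 0, 0.02, 0.1 and 0.5 Gy, a difference of -0.25 at 0.02 Gy. Plk1, a mitotic kinase, was 2.17-fold lower at 0.02 Gy and had differences of -0.12 and -0.15 at the other doses. The levels of Cdkn1a and of these genes thus lay apart at 0.02 Gy in opposite directions, while at 0.5 Gy, where Cdkn1a was 3.14-fold higher, the median of these genes was -0.12. That contrast was not tested.

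**Figure D4:**
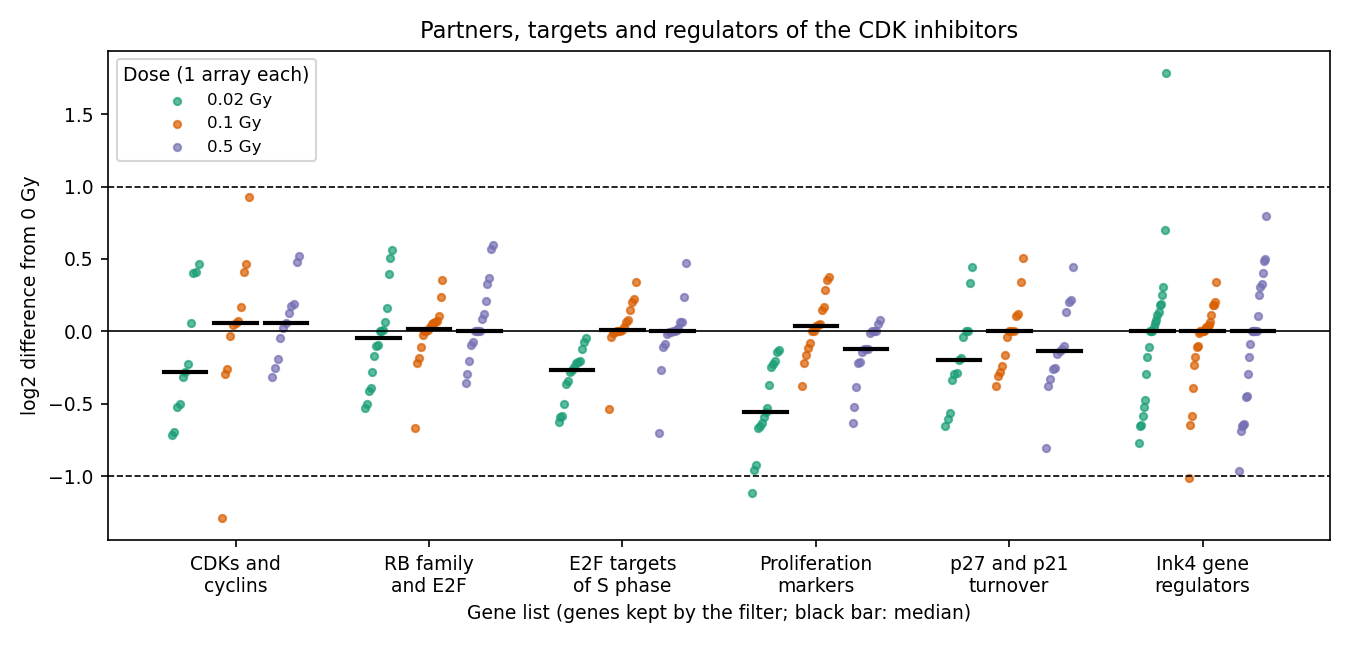
Log2 difference from 0 Gy (y axis) of the kept genes of 6 lists (x axis), 1 point per gene and 1 array per dose, with black bars for medians and dashed lines at 2-fold. At 0.02 Gy the medians are -0.27 for E2F targets and -0.56 for proliferation markers, and at 0.1 and 0.5 Gy the medians of all 6 lists lie between -0.13 and 0.06.

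Of the genes that control the amount of p27 and p21 protein, 13 were kept. Below the control array lay 9, 6 and 9 of them at 0.02, 0.1 and 0.5 Gy. For comparison, 54.5% and 54.3% of all kept genes were at or above 0 Gy at 0.02 and 0.1 Gy. That share was not computed at 0.5 Gy. In this list 0 were at least 1.5-fold higher at any dose, and 2, 0 and 1 were lower at 0.02, 0.1 and 0.5 Gy. Among all kept genes 6.44%, 5.50% and 5.92% were that much higher and 6.20%, 7.48% and 8.25% lower. The medians of the list were -0.20, 0.00 and -0.13. Skp2, the F-box protein that marks p27 for degradation, had 6.63, 6.06, 6.31 and 5.82 at 0, 0.02, 0.1 and 0.5 Gy. Its cofactor Cks1b had 9.61, 8.95, 9.73 and 9.48. Dtl, which directs p21 to the CUL4 ligase, had 8.01, 7.40, 7.62 and 7.62, and its differences were -0.61, -0.38 and -0.38. Skp2 and Dtl were below 0 Gy on all irradiated arrays. Cul4a, of the CUL4 ligase, was above 0 Gy on all of them, with 6.09, 6.53, 6.60 and 6.53 at 0, 0.02, 0.1 and 0.5 Gy.

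Regulators of the Ink4 genes comprised 23 kept genes, Polycomb subunits among them, with a median of 0.00 at each dose. At least 1.5-fold higher were 2, 0 and 1 genes at 0.02, 0.1 and 0.5 Gy, and lower 3, 2 and 5. Among all kept genes 6.44%, 5.50% and 5.92% were that much higher and 6.20%, 7.48% and 8.25% lower. Bmi1, the Polycomb repressor of Cdkn2a that HSCs need for self-renewal, had 6.55, 5.78, 6.32 and 5.59 at 0, 0.02, 0.1 and 0.5 Gy. Pcgf2, a paralogue of Bmi1, had 7.08, 6.43, 6.68 and 6.39. Both were below 0 Gy on every irradiated array, and Cdkn2a stayed below the filter level on the same arrays. Ezh1, a histone methyltransferase, had 6.75, 7.45, 5.73 and 6.29, highest at 0.02 Gy and lowest at 0.1 Gy. Id1, an antagonist of basic helix-loop-helix factors that can repress Cdkn2a, had 4.68, 6.46, 4.67 and 5.47. Mtap, the metabolic gene next to Cdkn2a, had 8.22, 7.94, 7.99 and 7.71, below 0 Gy on all irradiated arrays. The other kept neighbour, the neuronal RNA-binding protein gene Elavl2, had differences of 0.03, -0.12 and 0.36, and Dmrta1, which was under the filter, had 0.00, -0.12 and -0.17.

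Imprinted genes, including neighbours of Cdkn1c, were represented by 13 kept of 21 measured genes. Their medians were 0.00, 0.00 and -0.14, and none was at least 1.5-fold higher at any dose, while 1, 2 and 2 were lower. Among all kept genes 6.44%, 5.50% and 5.92% were that much higher at 0.02, 0.1 and 0.5 Gy and 6.20%, 7.48% and 8.25% lower. Grb10, an imprinted adaptor of growth factor receptors, had 7.79, 7.36, 7.35 and 6.53 at 0, 0.02, 0.1 and 0.5 Gy. Kcnq1ot1, the antisense RNA that silences Cdkn1c on the paternal allele, had 4.68, 4.87, 4.68 and 3.77. Phlda2, a neighbour of Cdkn1c in the same domain, had 5.23, 4.44, 4.55 and 4.81, all irradiated arrays being lower. Neither Kcnq1ot1 nor Phlda2 had the course of Cdkn1c, which was highest at 0.02 Gy and lowest at 0.1 Gy. Tssc4 and Cd81, also kept genes of this list, were highest and lowest on those same arrays. Their differences from 0 Gy were small, at 0.10, -0.12 and -0.03 for Tssc4 and 0.01, -0.14 and -0.05 for Cd81.

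The genes whose course over the 4 arrays was most like that of Cdkn1a were found by the Euclidean distance between log2 values centred on each gene's mean, over 10576 other kept genes with a proper name. Cdkn1a alone among the members had a range of at least 1 log2 unit, which this search required. The nearest were Tmem218, a cilium-associated membrane protein gene, at a distance of 0.32, Hps4, which acts in the biogenesis of lysosome-related organelles, at 0.35, the zinc finger gene Zfp33b at 0.36, Dusp5, a phosphatase of ERK kinases, at 0.40, and the amino acid transporter gene Slc7a8 at 0.42. Tmem218 had differences of 1.79, 0.88 and 1.99, and Hps4 had 1.33, 0.75 and 1.33 at 0.02, 0.1 and 0.5 Gy. With 4 arrays this likeness is only a description.

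Markers of the sort and of other cell types varied between the same arrays. The 5 measured sorted HSC markers had a mean log2 level of 8.42, 9.12, 8.39 and 8.58 at 0, 0.02, 0.1 and 0.5 Gy, and all 5 were at or above the filter level on every array. Means of 9 B and plasma cell markers were 5.52, 6.27, 5.18 and 4.77, with 5 to 7 at or above the filter level. Among them Cd79a, of the B cell receptor, had 3.80, 6.61, 4.40 and 3.30, Mzb1 had 6.23, 7.60, 5.24 and 3.78, and Jchain, which joins secreted antibodies, had 9.75, 10.69, 8.46 and 7.32, while Ms4a1, a marker of mature B cells, lay at 2.23 to 2.32 and Pax5 at 4.26 on every array. Means of 9 neutrophil and granulocyte progenitor markers were 4.11, 4.58, 6.03 and 4.92, with 3 to 7 at or above it, and of 5 erythroid markers 5.76, 5.58, 6.48 and 7.05, with 4 to 5 at or above it. Of the neutrophil and granulocyte progenitor markers, Mpo had 4.78, 6.44, 8.75 and 7.07 and S100a8 had 3.89, 2.81, 6.54 and 4.88. Ltf, of the same list, lay at 2.42 to 2.61. The 6 endothelial markers had means of 5.88, 5.24, 5.29 and 5.26, with 3 to 5 at or above the filter level, and all 4 kept by the filter lay below 0 Gy on every irradiated array, Sox18 by the most, with differences of -2.43, -1.97 and -1.97. Of the endothelial markers under the filter, Cdh5 had differences of -0.01, 0.40 and -0.01 at 0.02, 0.1 and 0.5 Gy, and Kdr had -0.44, -0.65 and -0.59. The endothelial mean was highest at 0 Gy, where Cdkn1a was lowest. The mean of the neutrophil and granulocyte progenitor markers and that of the markers the sort excludes were lowest at 0 Gy, as was Cdkn1a. Means were 6.24, 6.30, 5.38 and 6.11 for 7 monocyte, macrophage and dendritic cell markers and 8.52, 8.57, 7.92 and 8.24 for 5 megakaryocyte markers, both lowest at 0.1 Gy. For 6 markers that the sort excludes they were 3.30, 3.34, 3.55 and 3.75, with 1 to 3 at or above the filter level. Flt3, which encodes Flk2 and was the only 1 of these 6 kept by the filter, had 4.46, 4.76, 5.44 and 4.76. For 8 T and NK cell markers the highest mean was 4.12, at 0.5 Gy, against 4.03 at 0 Gy. The means of the HSC, B cell, megakaryocyte, and monocyte, macrophage and dendritic cell lists were highest at 0.02 Gy, as was Cdkn1a. At 0.5 Gy, where Cdkn1a was also high, the B cell mean was at its lowest over the 4 arrays. Fewer cells of a type and less RNA per cell cannot be told apart in these bulk samples. The part of cell composition in the differences of Cdkn1a, Cdkn1c and the cell cycle genes was not tested.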

How the data were processed

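The authors deposited 1 log2 intensity per probe set and array, per the labels from biotin-labelled cDNA on an Affymetrix whole-transcript array. Base 2 was inferred from the range of 1.22 to 13.0. Partek is named without a role in the submitters' processing notes. How background was corrected and arrays were normalized, and the probe annotation build, is not given in the sources used here. Array medians were 4.01 to 4.07. Of 25206 probe sets, 23185 carried 1 symbol in the platform table and 2021 none. Arrays were grouped by labelled dose.

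No further normalization was applied, and the filter on low values (mean of 4.06 or more) left 11593 genes. Differences between single arrays have no test. Irradiated arrays were compared with 0 Gy, and a line in dose was fitted, with limma (version 3.58.1, R version 4.3.3), moderated by eBayes and adjusted by Benjamini-Hochberg. Both fits leave 2 residual degrees of freedom, and the first assumes the same variance for the single 0 Gy array. Coordinates and promoter windows come from RefSeq, GRCm38.p6.

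All members were named, with up to 4 kept genes per list by largest absolute difference, Mdm2, Mki67 and some others by name, and the 5 genes most like a member with a range of 1 log2 unit. The text gives a part of them. Ccng1, Cdk2, Dmrta1, Tssc4, Cd81, Pax5, Ms4a1, Ltf, Cdh5 and Kdr fall outside that rule and were chosen after their values were seen. Members and lists were chosen with earlier results of these data known. Alternatives are given in the closing section.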

Additional observations from a re-analysis of the deposited data

How the results depend on the processing

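Under quantile normalization, median centring and cyclic loess no member's difference from 0 Gy moved by more than 0.09 log2 units, and the counts of members at 2-fold did not change. A value was taken as moved when it shifted by 0.58 (1.5-fold) or more, since there are no replicates. With each array set against the average of the remaining 3, which takes irradiated arrays into the control, the difference of Cdkn1a became 0.94 at 0.02 Gy, -0.21 at 0.1 Gy and 0.73 at 0.5 Gy, and 0 members were 2-fold higher at 0.02 or 0.5 Gy. At a threshold of 1.5-fold 1 member was higher at 0.1 Gy and 2 at 0.5 Gy. Without the filter, limma called 213 of 23185 genes for irradiated arrays against 0 Gy, none of them a member, and 0 in the line fit. Each other alternative gave 0 calls in both fits. The limma adjusted p of Cdkn1a against 0 Gy ranged from 0.34 to 0.72 over all settings, and its difference from 1.30 to 1.73 when leaving out each irradiated array, while its slope ranged from 0.35 to 3.67. On leaving out each irradiated array the mean difference ranged from 0.04 to 0.45 for Cdkn2d, -0.30 to -0.05 for Cdkn2c, -0.24 to -0.21 for Cdkn2b and 0.00 to 0.07 for Cdkn1b.

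Direction changed for Cdkn1c in the irradiated contrast without the 0.02 Gy array (-0.18, the range over left-out arrays being -0.18 to 0.31), and in the line fit, where its slope was -0.06, under quantile normalization (0.15), median centring (0.0050) and without 0.02 Gy (0.55, with a range of -6.76 to 0.55). The slope of Cdkn2c became -0.23 without 0.02 Gy (range -0.23 to 1.74) and that of Cdkn2d -3.07 without 0.5 Gy (range -3.07 to 1.48). That of Cdkn2b ranged from -1.48 to -0.14 and that of Cdkn1b from 0.00 to 0.31. None of these had passed the threshold, and the cause was not tested. Leaving out 0 Gy in the irradiated contrast could not be fitted. No paired analysis was possible because each dose has 1 array and the labels give no replicate numbers.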

Other observations

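Genes that carry a Cdkn symbol without belonging to these inhibitor families had their own courses. Cdkn3, a phosphatase that acts on CDK2, read 8.70, 8.24, 7.97 and 8.36 in log2 intensity at 0, 0.02, 0.1 and 0.5 Gy, so that every irradiated array lay below 0 Gy. Cdkn2aip, which encodes a binding partner of ARF, had 6.55, 7.24, 6.79 and 7.12, with the same order of arrays as Cdkn1a and differences of 0.69, 0.24 and 0.57. Cdkn2aipnl had 8.39, 8.19, 8.56 and 8.47.

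Exact ties touched 3 of the 7 inhibitors. Cdkn1b had 2 distinct values on the 4 arrays, and Cdkn2b and Cdkn2c had 3 each. Of all kept genes 46.3% had at least 1 tie and 3.30% had the same value on every array. Several regulators had a single value on all irradiated arrays and another at 0 Gy, among them Cdk2 and Hipk2, a kinase that acts on p53, with 7.67 at 0 Gy and 8.19 on each irradiated array.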
